A study of Mus musculus with 12 samples.

Results

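The genes described here are 10 genes of neutrophil granules and of the neutrophil cytosol, chosen by symbol from the count data: Elane, Mpo, Prtn3 and Ctsg (early granule genes), Ltf, Camp, Ngp and Lcn2 (late granule genes), and S100a8 and S100a9 (S100 genes). All 10 were found among the 57010 genes listed, and all 10 were among the 15425 genes tested. They were followed over 12 bulk RNA-seq libraries of preosteoclasts, which are bone marrow cells grown for 2 days with M-CSF and RANKL, the cytokines that drive osteoclast formation. The study compared female LSD1WT and LSD1cKO mice, in which floxed LSD1 (gene Kdm1a, a histone demethylase) was deleted by LysM-Cre. The Lyz2 promoter drives this Cre in myeloid cells, neutrophils included. Each genotype had 2 libraries of each of 3 cultures: mandible marrow of mice that carried silk ligatures around the left and right maxillary second molars over 7 days, femur marrow of such ligated mice, and femur marrow of mice without ligatures. The labels give an age of 2 months, and the study's sequencing methods give 3 months. The libraries came from 9 mice (5 LSD1WT and 4 LSD1cKO), of which 3 ligated mice, 1 LSD1WT and 2 LSD1cKO, contributed to both sites. Whether the LSD1WT mice carried Cre is not given in the sources used here.

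Neutrophils make their granule proteins in a fixed order as they mature in bone marrow. Promyelocytes fill the first, azurophil granules with myeloperoxidase and serine proteases, while later precursors fill specific and gelatinase granules with lactoferrin, cathelicidin and related proteins. S100A8 and S100A9 pair as calprotectin, an abundant cytosolic protein of neutrophils and monocytes that binds calcium and zinc. C/EBP factors, PU.1 and GFI1 are known regulators of this order, and LSD1 is a known partner of GFI1 and GFI1B. The transcripts of early granule genes are largely lost before the late ones appear, so both groups mark different stages of the same lineage. In bulk RNA, fewer cells of a type and less RNA per cell cannot be told apart.

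Library totals ran from 21375805 to 32526751 counts with a median of 26364586. Levels are given as CPM, the usual depth-scaled unit, computed on TMM scaled library sizes. A count of 0 allows up to 3 counts, which is 0.0927 to 0.154 CPM by library and covers counting error only. The deleted gene Kdm1a was at 61.2 to 71.3 CPM in the 6 LSD1WT libraries and at 15.6 to 24.3 CPM in the 6 LSD1cKO libraries. Both femur LSD1WT replicate 2 libraries, ligated and unligated, stood apart. Their summed osteoclast markers (12 genes) were at 637 and 546 CPM against 7499 to 21754 CPM in the other libraries, and their summed macrophage markers (12 genes) were at 19972 and 13456 CPM against 1920 to 5499 CPM. The mandible LSD1WT libraries, replicates 1 and 3, were nearly the same, with a median squared deviation over genes of 1.54 times the sampling noise against 4.88 times or more in the other replicate pairs. Replicate 3 is titled mandible but carries a femur library name, and was taken as mandible. The sample numbers in the titles give the 2 libraries of a condition to different mice.

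Per length, S100a9 was the most abundant of the 10 genes, with a median level of 92.3 CPM per kb over the 12 libraries and a range of 45.8 to 225 CPM per kb. Ngp (neutrophilic granule protein) followed at 33.8 CPM per kb, and S100a8 at 29.0 CPM per kb. Camp, the cathelicidin precursor, and Ltf, lactoferrin, were at 6.78 and 6.75 CPM per kb. Elane (neutrophil elastase) was at 3.17 CPM per kb, Lcn2 (lipocalin 2, which binds bacterial siderophores) at 2.96 and Mpo (myeloperoxidase) at 2.44. Prtn3 (proteinase 3) and Ctsg (cathepsin G) were lowest, at 1.56 and 1.51 CPM per kb. The ranges of neighbours in this order overlapped, except those of S100a8 (14.8 to 68.2 CPM per kb) and Camp (3.17 to 13.7 CPM per kb). Exon lengths were taken from GENCODE vM21 by Ensembl identifier, an older annotation than the GRCm39 build of the counts. All 10 genes together summed to 96.2 to 320.0 CPM, which is 0.00929% to 0.0324% of the counts of a library.

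The early granule genes had their highest mean levels in the mandible. Mpo gave 15.1 and 17.0 CPM in mandible LSD1WT, next to 17.2 and 18.4 CPM in mandible LSD1cKO. Femur cultures of ligated mice gave 6.37 and 12.8 CPM for LSD1WT and 5.01 and 4.47 CPM for LSD1cKO, and those of unligated mice 7.48 and 9.19 CPM for LSD1WT and 7.02 and 2.57 CPM for LSD1cKO. The 4 mandible libraries were thus above all 8 femur libraries for Mpo. Prtn3 gave 6.16 and 5.10 CPM in mandible LSD1WT, next to 6.56 and 5.84 CPM in mandible LSD1cKO. Femur Prtn3 with ligature gave 1.49 and 5.18 CPM for LSD1WT and 2.68 and 2.32 CPM for LSD1cKO, and without ligature 2.71 and 2.65 CPM for LSD1WT and 2.24 and 2.20 CPM for LSD1cKO. A single femur library, ligated LSD1WT replicate 2, reached into the mandible range for Prtn3, and it did so for Elane and Ctsg as well. Elane gave 4.61 and 4.92 CPM in mandible LSD1WT, next to 4.47 and 3.99 CPM in mandible LSD1cKO. Femur Elane with ligature gave 1.62 and 4.46 CPM for LSD1WT and 2.60 and 2.41 CPM for LSD1cKO, and without ligature 3.63 and 2.07 CPM for LSD1WT and 2.60 and 1.72 CPM for LSD1cKO. Elane therefore spread most between the 2 libraries of femur LSD1WT. Ctsg, the least abundant member, was at 1.92 to 2.20 CPM in the 4 mandible libraries and at 0.677 to 2.00 CPM in the 8 femur libraries.

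The late granule genes had another order of libraries. Ngp gave 40.9 and 38.6 CPM in mandible LSD1WT, next to 32.9 and 40.6 CPM in mandible LSD1cKO. Femur cultures of ligated mice gave 35.9 and 68.3 CPM for LSD1WT and 81.2 and 65.9 CPM for LSD1cKO, and those of unligated mice 41.6 and 26.9 CPM for LSD1WT and 47.8 and 46.3 CPM for LSD1cKO. The 3 highest libraries for Ngp were thus both ligated femur LSD1cKO libraries and ligated femur LSD1WT replicate 2. Ltf gave 22.1 and 23.5 CPM in mandible LSD1WT, next to 19.2 and 23.2 CPM in mandible LSD1cKO. Femur Ltf with ligature gave 17.9 and 28.7 CPM for LSD1WT and 46.1 and 30.3 CPM for LSD1cKO, and without ligature 19.0 and 13.6 CPM for LSD1WT and 23.3 and 25.4 CPM for LSD1cKO. The same 3 libraries were highest for Ltf and for Lcn2. Lcn2 was at 7.18 to 8.19 CPM in the 4 mandible libraries. Femur Lcn2 with ligature gave 5.53 and 12.8 CPM for LSD1WT and 15.2 and 12.3 CPM for LSD1cKO, and without ligature 6.87 and 4.35 CPM for LSD1WT and 7.31 and 10.8 CPM for LSD1cKO. Unligated femur LSD1WT replicate 2 was the lowest library for all 4 late genes. Camp ran from 2.40 CPM in that library to 10.4 CPM in ligated femur LSD1cKO replicate 2, with 3.30 to 5.63 CPM in the mandible.

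The S100 genes followed the order of the late granule genes. S100a9 gave 45.9 and 45.9 CPM in mandible LSD1WT, next to 41.5 and 50.5 CPM in mandible LSD1cKO. Femur cultures of ligated mice gave 34.8 and 108 CPM for LSD1WT and 117 and 114 CPM for LSD1cKO, and those of unligated mice 56.0 and 23.9 CPM for LSD1WT and 37.9 and 92.3 CPM for LSD1cKO. The mandible values were close together, and each femur condition other than ligated LSD1cKO was split between its 2 libraries. S100a8 was at 17.8 to 20.7 CPM in the mandible. Femur S100a8 with ligature gave 14.4 and 45.3 CPM for LSD1WT and 41.3 and 47.3 CPM for LSD1cKO, and without ligature 25.7 and 10.3 CPM for LSD1WT and 16.6 and 32.5 CPM for LSD1cKO. The partners of the calprotectin pair kept a nearly fixed ratio of counts, with 2.18 to 2.84 S100a9 counts per S100a8 count over the 12 libraries.

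**Figure D1:**
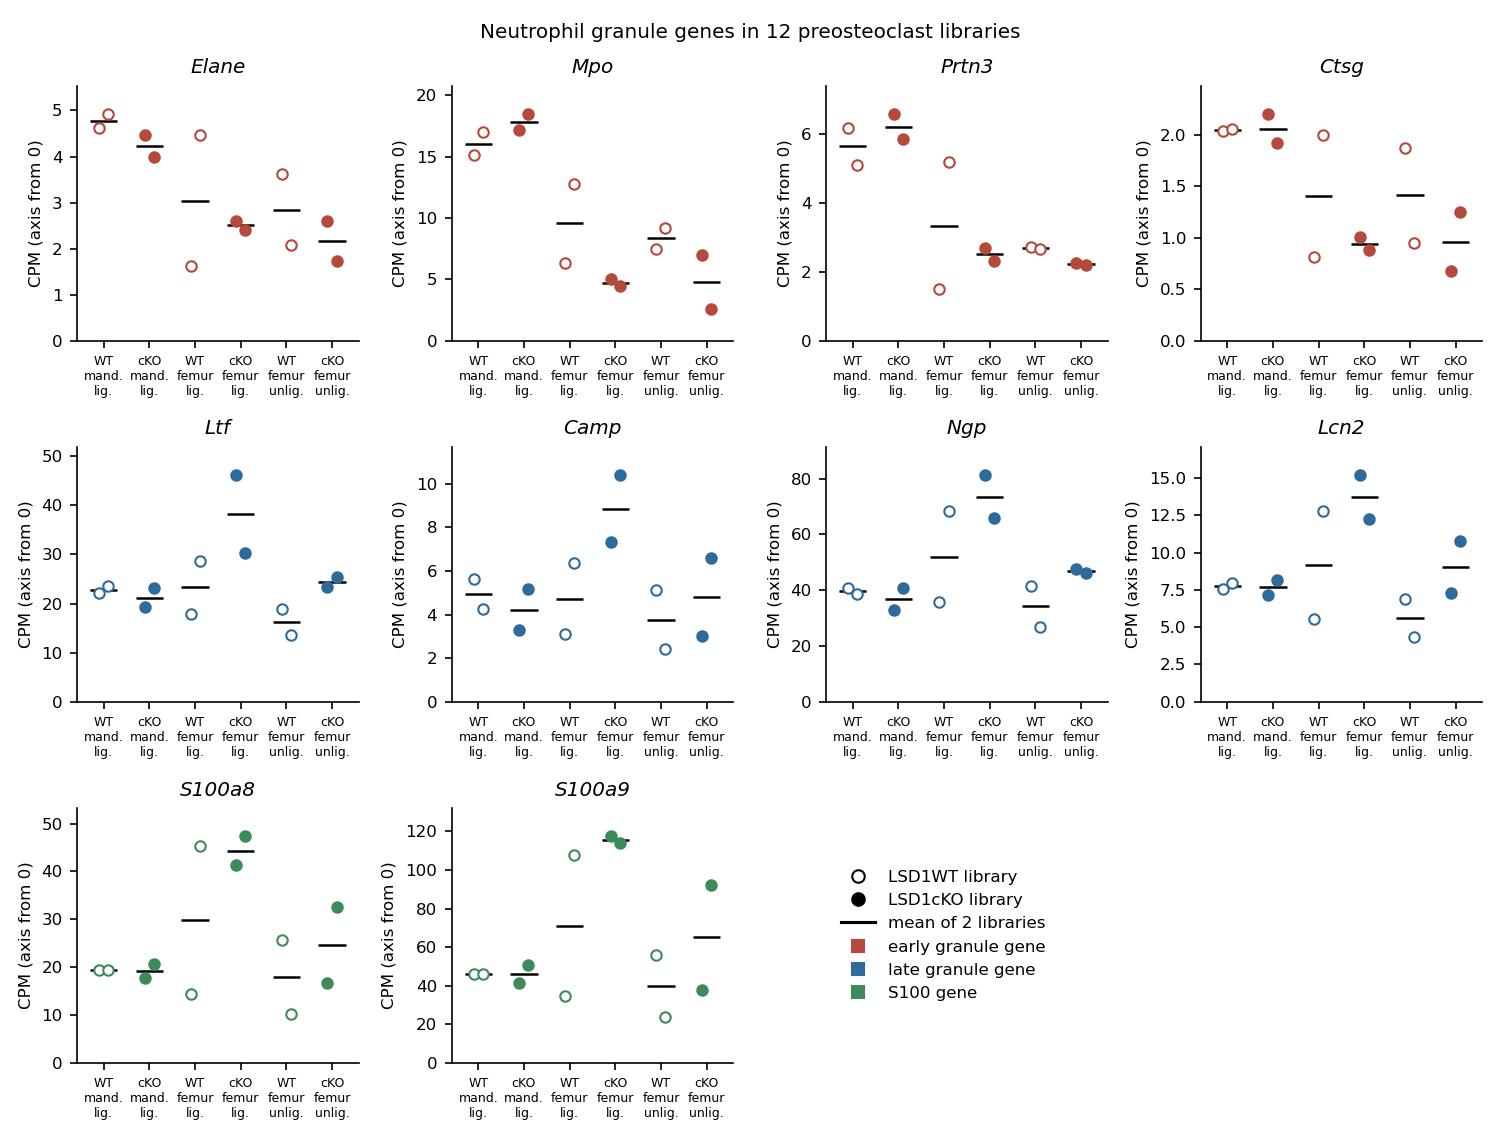
Level in CPM (vertical axes from 0) of each of the 10 genes in every library, by genotype, site and ligature on the horizontal axes. Open circles are LSD1WT libraries, filled circles LSD1cKO libraries and bars the mean of 2 libraries. The early granule genes (top row) have their highest means in the mandible, with Mpo at 15.1 to 18.4 CPM there, and the late granule and S100 genes have theirs in ligated femur LSD1cKO, with S100a9 at 117 and 114 CPM.

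The 10 genes thus fell into 2 patterns over the libraries. Pearson's r of log2 CPM over the 12 libraries was 0.68 to 0.91 for the 6 pairs of early genes (median 0.84), and 0.77 to 0.95 for the 6 pairs of late genes (median 0.90). The S100 genes correlated with each other at 0.991 and with the late genes at 0.83 to 0.96 (8 pairs, median 0.91). Early genes correlated with late genes at -0.39 to 0.14 (16 pairs, median 0.015) and with the S100 genes at -0.44 to 0.098 (8 pairs, median 0.015). These correlations are descriptions, since the points share libraries, conditions and depth. The summed late and S100 level was 4.0 to 5.07 times the summed early level in the 4 mandible libraries. In the ligated femur this ratio was 10.8 and 11.02 in LSD1WT and 27.3 and 27.8 in LSD1cKO, and in the unligated femur it was 9.83 and 5.47 in LSD1WT and 10.8 and 27.7 in LSD1cKO. The ratio in each of the 8 femur libraries was above that in each mandible library. It was nearly equal in both ligated femur LSD1WT libraries, although every one of the 10 genes was at a higher level in replicate 2 than in replicate 1.

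**Figure D2:**
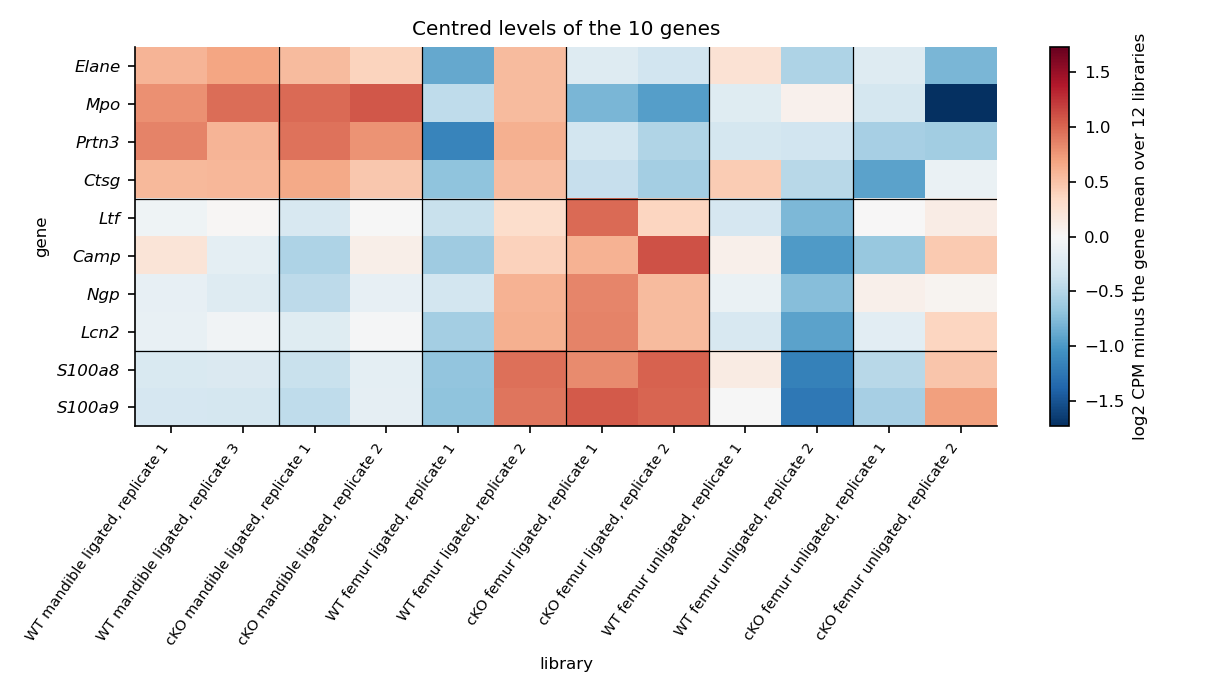
Log2 CPM of each gene (rows) in each library (columns) minus the mean of the gene over the 12 libraries, from low (blue) to high (red), with lines between gene groups and conditions. The early granule genes are high together in the mandible libraries and in ligated femur LSD1WT replicate 2. The late granule and S100 genes are high together in that library and in both ligated femur LSD1cKO libraries. In unligated femur LSD1cKO replicate 2 the S100 genes, Lcn2 and Camp are high as well (S100a9 at 92.3 CPM), with Ngp and Ltf nearer their means.

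**Figure D3:**
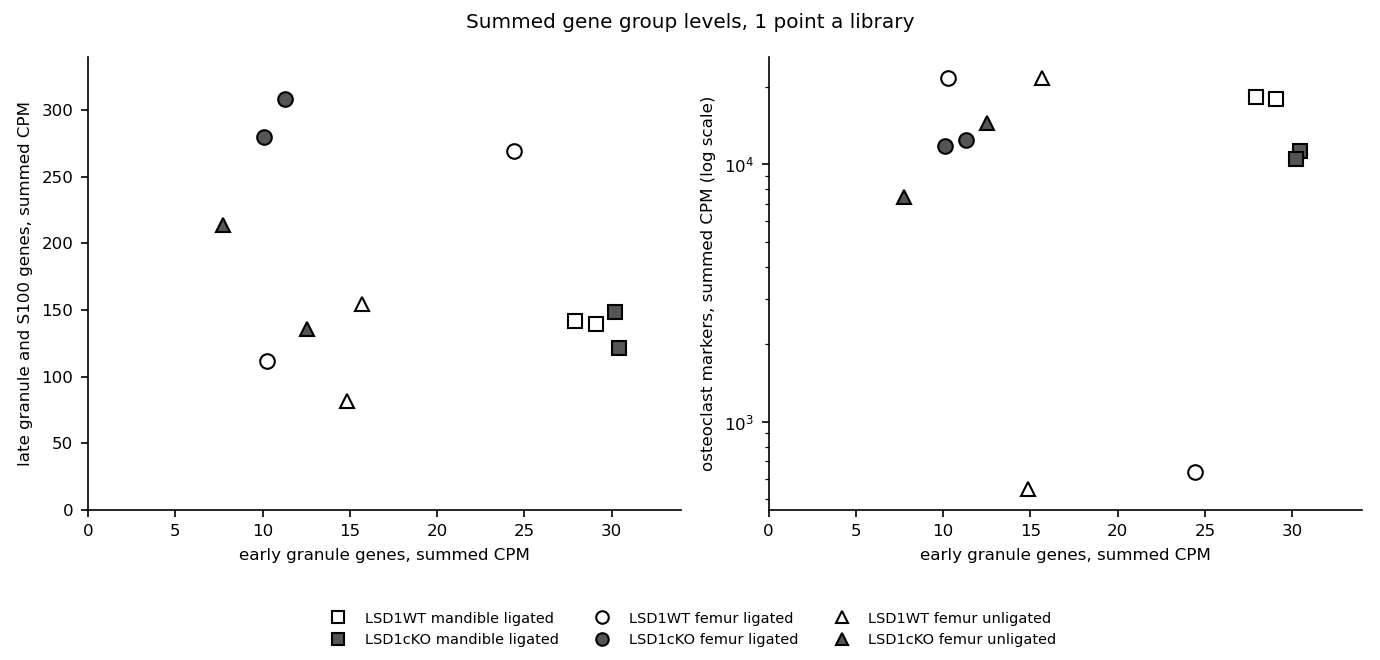
Summed CPM of the 4 early granule genes (horizontal axes) against the summed CPM of the 6 late granule and S100 genes (left, axis from 0) and of 12 osteoclast markers (right, log scale), 1 point for each library. Squares are mandible ligated, circles femur ligated and triangles femur unligated libraries, open for LSD1WT and filled for LSD1cKO. The mandible libraries lie together on the right at 27.9 to 30.4 CPM of early genes, and both femur LSD1WT replicate 2 libraries lie alone at 637 and 546 CPM of osteoclast markers.

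Because the members moved in 2 patterns, the sequence just before their start sites was examined in the RefSeq promoters of build GRCm38.p6, which differs from the GRCm39 build of the counts. Entries matched all 10 genes, and the 250 bases before the start were searched on both strands for 3 short motifs, TTGCNNAA for C/EBP, AGGAAG for PU.1 and AATCAC for GFI1. The C/EBP motif was found before Ltf, Ngp, Lcn2 and S100a9, and thus before 4 of 10 genes, against 9.56% of 32851 promoters of this length. The PU.1 motif was found before 8 of 10 genes, all but Ngp and S100a9, against 29.5% of promoters. The GFI1 motif was found before Ltf and S100a8, against 9.14% of promoters. None of the 4 early genes held the C/EBP motif in this window, and each held the PU.1 motif. A match to such letters is a description and not a bound site, and no binding was measured. Shown are the promoters of Mpo, the early gene with the widest range of levels, of Ltf, where all 3 motifs were found, and of Ngp and S100a9, the members with the highest levels of the late and the S100 group. Capitals mark the motif matches, and each line reads 5′ to 3′ toward the start site.
Mpo, chr11:87793534-87793783, plus strand: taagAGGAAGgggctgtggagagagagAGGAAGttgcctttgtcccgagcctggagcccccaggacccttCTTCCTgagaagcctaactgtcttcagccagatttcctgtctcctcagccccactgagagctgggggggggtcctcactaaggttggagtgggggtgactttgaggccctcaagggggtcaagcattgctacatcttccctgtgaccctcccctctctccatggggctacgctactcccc
Ltf, chr9:111019042-111019291, plus strand: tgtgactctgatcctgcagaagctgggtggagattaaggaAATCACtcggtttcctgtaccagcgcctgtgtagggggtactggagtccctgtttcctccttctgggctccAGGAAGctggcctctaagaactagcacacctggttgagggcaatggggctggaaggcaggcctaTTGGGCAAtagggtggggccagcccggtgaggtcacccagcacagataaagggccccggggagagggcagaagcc
Ngp, chr9:110419558-110419807, plus strand: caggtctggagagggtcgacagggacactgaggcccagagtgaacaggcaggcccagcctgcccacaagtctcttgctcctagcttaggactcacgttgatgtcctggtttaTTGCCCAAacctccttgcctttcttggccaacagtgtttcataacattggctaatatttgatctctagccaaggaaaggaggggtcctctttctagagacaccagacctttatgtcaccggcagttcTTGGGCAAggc
S100a9, chr3:90695722-90695971, minus strand: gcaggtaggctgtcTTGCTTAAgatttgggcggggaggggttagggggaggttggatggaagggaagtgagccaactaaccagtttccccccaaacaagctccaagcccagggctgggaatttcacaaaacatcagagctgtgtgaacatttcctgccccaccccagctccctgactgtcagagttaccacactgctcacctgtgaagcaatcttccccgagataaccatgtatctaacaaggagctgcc

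To ask whether deletion of LSD1 moved the granule genes, LSD1cKO was compared with LSD1WT over the 3 cultures, with 6 libraries per genotype. No member passed an adjusted p of 0.05 in edgeR's quasi-likelihood test, against 3.53% of all genes tested (462 higher and 82 lower in LSD1cKO). None passed an unadjusted p of 0.05, against 16.1% of all genes in edgeR, and none was called by DESeq2 or limma voom. The 4 early genes had log2 fold changes of -0.55 to -0.17 with a median of -0.32, the 4 late genes 0.28 to 0.42 with a median of 0.37, and the S100 genes 0.34 and 0.47. The median over all genes was -0.065. Mpo had 6.37, 10.99 and 17.0 CPM (lowest, median and highest) in LSD1WT against 2.57, 6.02 and 18.4 CPM in LSD1cKO. Its log2 fold change was -0.55 (SE 0.29, 95% interval -1.20 to 0.10, adjusted p = 0.404), and LSD1cKO held both its lowest and its highest value. Ltf had 13.6, 20.5 and 28.7 CPM in LSD1WT against 19.2, 24.4 and 46.1 CPM in LSD1cKO. Its log2 fold change was 0.40 (SE 0.19, 95% interval -0.030 to 0.83, adjusted p = 0.349), the lowest adjusted p of the 10. S100a9 had 23.9, 45.9 and 108 CPM in LSD1WT against 37.9, 71.4 and 117 CPM in LSD1cKO, with a log2 fold change of 0.47 (SE 0.33, 95% interval -0.25 to 1.19, adjusted p = 0.545). The genotypes overlapped for all 10 genes, while 1.98% of the genes tested were higher and 0.797% lower in LSD1cKO without overlap. The remaining log2 fold changes were -0.28 for Elane, -0.17 for Prtn3, -0.36 for Ctsg, 0.35 for Camp, 0.28 for Ngp, 0.42 for Lcn2 and 0.34 for S100a8, with adjusted p from 0.441 to 0.824. Prtn3 turned to 0.13 when ligated femur LSD1WT replicate 2 was left out.

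Mandible cultures were compared between the genotypes next. No member passed the test and 0% of all genes did, by edgeR, and no member was called or reached an unadjusted p of 0.05 in edgeR, DESeq2 or limma voom. The log2 fold changes ran from -0.22 (Camp) to 0.15 (Mpo), with the S100 genes at -0.017 and 0.0040. The 95% interval was narrowest for Ltf, at -0.81 to 0.59, and widest for S100a9, at -1.35 to 1.36. Fitted with the 4 mandible libraries alone, 5434 genes passed and no member did. Mpo was higher in LSD1cKO without overlap, where 34.1% of all genes were, and Elane lower without overlap, where 34.8% were. Mpo was at a log2 fold change of 0.15 (SE 0.47, adjusted p = 1.0), and counting the nearly identical LSD1WT libraries as 1 gave 0.17. The direction for Camp did not hold, with 0.026 without LSD1WT replicate 1 and 0.075 without LSD1cKO replicate 1.

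Ligated femur LSD1cKO had early genes at log2 fold changes below 0 and late and S100 genes above 0 against LSD1WT, and no member passed the test, against 0.00648% of all genes in edgeR. Ltf alone had an unadjusted p under 0.05 in edgeR, against 6.88% of all genes. DESeq2 and limma voom each had 1 such member and called none. Ltf, with LSD1WT at 17.9 and 28.7 CPM and LSD1cKO at 46.1 and 30.3 CPM, gave a log2 fold change of 0.72 (SE 0.31, 95% interval 0.012 to 1.42, adjusted p = 0.723). Camp gave 3.10 and 6.36 CPM for LSD1WT and 7.31 and 10.4 CPM for LSD1cKO, a log2 fold change of 0.91 (SE 0.56, adjusted p = 0.792). Ltf, Camp and S100a9 were higher in LSD1cKO without overlap, where 14.8% of all genes were. Mpo was lower without overlap, where 19.4% were, with a log2 fold change of -1.01 (SE 0.48, 95% interval -2.103 to 0.083, adjusted p = 0.746). The others were at 0.50 for Ngp, 0.58 for Lcn2, 0.57 for S100a8, 0.70 for S100a9, -0.27 for Elane, -0.40 for Prtn3 and -0.56 for Ctsg.

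These femur values depended on which LSD1WT library was kept, and replicate 2 is the library with few counts of osteoclast markers. With 1 library left out at a time, Ltf stayed at 0.47 to 1.10, Camp at 0.56 to 1.51 and Mpo at -1.34 to -0.43. Elane, Ctsg and Prtn3 changed sign. Without both femur LSD1WT replicate 2 libraries, 4 members passed (Lcn2, Ngp, Ltf and S100a8), against 9.35% of all genes in that fit, which has 1 LSD1WT library in each femur condition and takes its spread from the other groups. There Ltf had a log2 fold change of 1.18 (adjusted p = 0.0337), Ngp 1.12 (adjusted p = 0.0148), Lcn2 1.40 (adjusted p = 0.0268) and S100a8 1.70 (adjusted p = 0.0308). In the same fit Elane, Ctsg and Prtn3 turned to 0.72, 0.31 and 0.83. Mpo stayed below 0 at -0.34. With the ligated replicate 2 alone left out no member passed, and S100a8 was at 1.62 and S100a9 at 1.73, against 0.056 and 0.19 with the ligated replicate 1 left out. The part of the macrophage and osteoclast content of these libraries in the granule gene values was not tested.

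In the unligated femur the directions were those of the ligated femur, and no member passed the test by edgeR, DESeq2 or limma voom, nor at an unadjusted p of 0.05, against 0% of all genes called. Mpo had a log2 fold change of -0.80 (SE 0.48, adjusted p = 1.0), Ltf 0.58 (SE 0.31, adjusted p = 1.0) and Lcn2 0.69 (SE 0.43, adjusted p = 1.0). Ltf, Ngp and Lcn2 were higher in LSD1cKO without overlap, where 9.82% of all genes were, and Mpo and Prtn3 lower, where 8.57% were. The genotype effect did not pass a test of its difference between mandible and femur for any member, with 0% of all genes called, or between ligated and unligated femur, again with 0% called. No member reached an unadjusted p of 0.05 in either test by edgeR, DESeq2 or limma voom. The difference of the effects (mandible minus ligated femur) was 1.16 for Mpo (SE 0.67, 95% interval -0.37 to 2.69) and -0.82 for Ltf (SE 0.43, 95% interval -1.81 to 0.17), each with an adjusted p of 1.0.

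**Figure D4:**
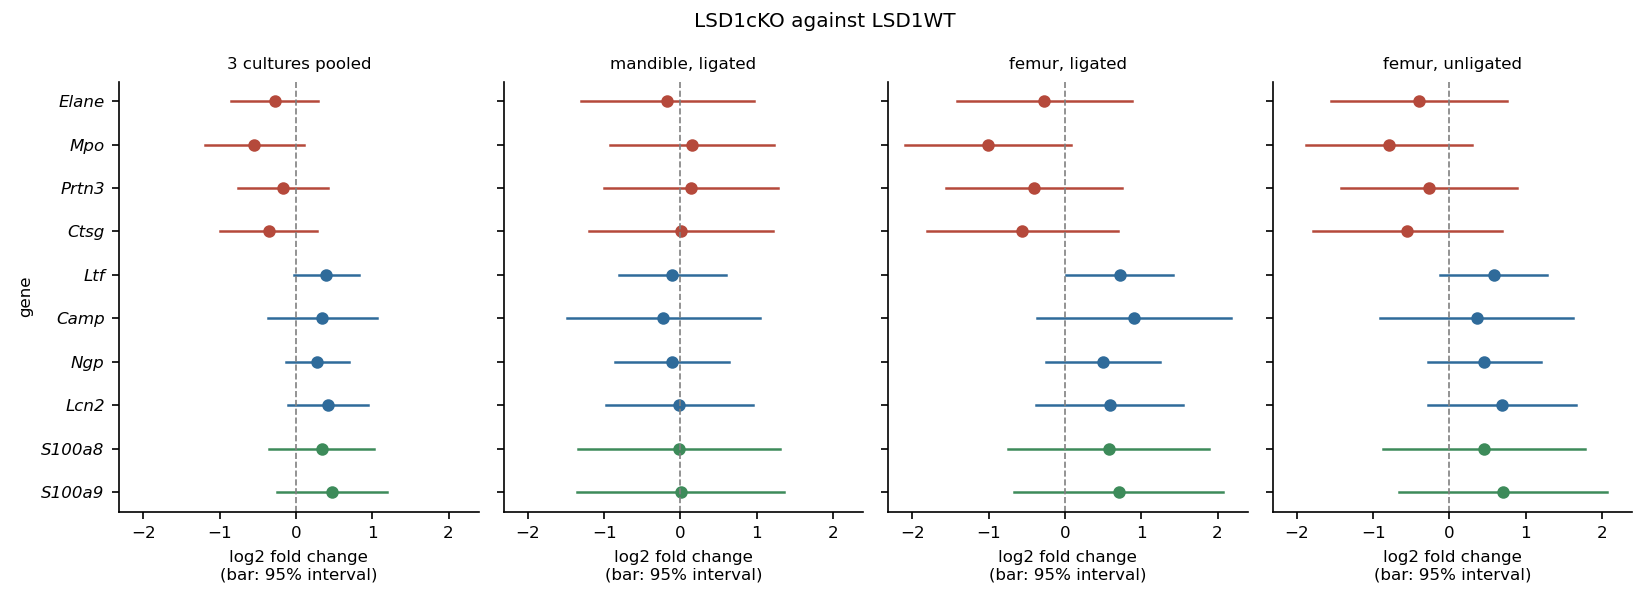
Log2 fold change of LSD1cKO against LSD1WT (points) with its 95% interval (bars) for each gene, over the 3 cultures and in each culture. Red marks early granule genes, blue late granule genes and green S100 genes. In both femur cultures the early genes lie below 0 and the late and S100 genes above 0, in the mandible all lie between -0.22 and 0.15, and all intervals but that of Ltf in the ligated femur include 0.

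Mandible was next compared with femur in ligated mice. In LSD1cKO, where both sites came from the same 2 mice, no gene of the 10 overlapped between the sites. The 4 early genes were higher in the mandible, where 35.3% of all genes were, and the 4 late and 2 S100 genes were lower, where 35.0% were. Mpo was at 17.2 and 18.4 CPM in the mandible against 5.01 and 4.47 CPM in the femur, a log2 fold change of 1.91 (SE 0.49, 95% interval 0.80 to 3.02, adjusted p = 0.186). The other early genes were at 1.31 for Prtn3, 1.12 for Ctsg and 0.75 for Elane. S100a9 was at 41.5 and 50.5 CPM against 117 and 114 CPM, a log2 fold change of -1.33 (SE 0.605, 95% interval -2.71 to 0.050, adjusted p = 0.352). S100a8 was at -1.20, Camp at -1.06, Ngp at -1.001 (SE 0.33, adjusted p = 0.226), Ltf at -0.85 and Lcn2 at -0.84. No member passed the test in edgeR, against 0% of all genes. An unadjusted p under 0.05 was found for 4 (Mpo, Prtn3, Ltf and Ngp), against 15% of all genes. DESeq2 called 1, Mpo, with an adjusted p of 0.0104, against 5.25% of all genes, and limma voom none.

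That count turned on the spread used. Fitted with the 4 LSD1cKO libraries of these conditions alone, all 10 members passed, against 42.1% of all genes, with adjusted p of 5.09e-05 for Mpo and 0.0219 for Elane as the lowest and highest of the 10. Without both femur LSD1WT replicate 2 libraries, 7 passed (all but Elane, Ctsg and Camp), against 21.7% of all genes. Leaving out ligated femur LSD1WT replicate 1 or replicate 2 made Prtn3 pass, with adjusted p of 0.0389 and 0.0392, against 4.25% and 4.12% of all genes. Over all alternatives the direction held for all 10 genes.

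In LSD1WT the early genes were again higher in the mandible, at log2 fold changes of 0.56 to 0.76. Mpo, Elane and Ctsg did not overlap with the femur, where 29.2% of all genes were higher without overlap. The late genes ran from -0.39 to 0.066 and the S100 genes were at -0.62 and -0.63. No member passed the test by edgeR, DESeq2 or limma voom, against 0% of all genes in edgeR. None had an unadjusted p under 0.05, against 19.8% of all genes in edgeR. Taken over both genotypes, a comparison added after seeing the data, Mpo had a log2 fold change of 1.33 (SE 0.34, 95% interval 0.56 to 2.102, adjusted p = 0.0542). Mpo was the only member without overlap between the 4 mandible and the 4 femur libraries, where 13.7% of all genes were higher without overlap. Prtn3 was at 1.03 (SE 0.36, adjusted p = 0.0991), Ngp at -0.69 (SE 0.23, adjusted p = 0.0907) and S100a9 at -0.98 (SE 0.42, adjusted p = 0.164). No member passed, against 6.22% of all genes in edgeR, and 4 had an unadjusted p under 0.05, against 29.8% of all genes. DESeq2 called 3 (Mpo, Ngp and Prtn3), against 20.7% of all genes, and limma voom none. Without ligated femur LSD1WT replicate 1, 6 members passed (Mpo, Prtn3, Ngp, Lcn2, S100a8 and S100a9), against 30.2% of all genes, and without replicate 2, Mpo and Prtn3 passed, against 3.91%. Mpo alone passed when any one unligated femur library was left out, against 12.4% and 12.5% of all genes for LSD1WT replicates 1 and 2 and 4.52% and 4.68% for LSD1cKO replicates 1 and 2. Among the libraries compared here, macrophage markers moved with the site, and 7 of 12 were called lower in the mandible. Their summed level was 1920 to 2363 CPM in the mandible and 3964 to 19972 CPM in the ligated femur, and 2 of 12 neutrophil markers (list median -0.94) and 3 of 7 megakaryocyte markers (list median -2.28) were called lower as well. The summed neutrophil markers were at 11.8 to 27.5 CPM in the mandible and at 17.3 to 94.4 CPM in the ligated femur. The part of these lists in the granule gene values was not tested.

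**Figure D5:**
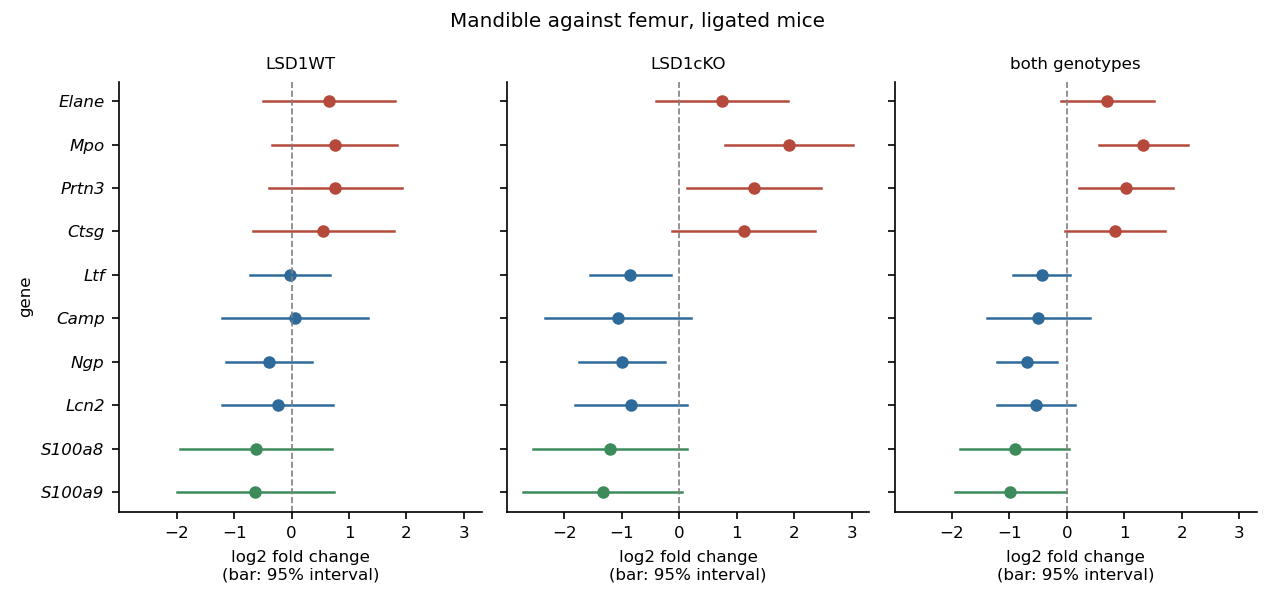
Log2 fold change of mandible against femur in ligated mice (points) with its 95% interval (bars) for each gene, in LSD1WT, in LSD1cKO and over both genotypes. Red marks early granule genes, blue late granule genes and green S100 genes. The early genes lie above 0 in each panel, with Mpo at 1.91 in LSD1cKO, and the S100 genes lie below 0.

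Ligature was compared in the femur only. In LSD1cKO, 7 members (the 4 late genes, both S100 genes and Prtn3) did not overlap between ligated and unligated femur and were higher with ligature, where 30.0% of all genes did not overlap in either direction and 2167 of 15425 were higher. S100a8 gave 41.3 and 47.3 CPM with and 16.6 and 32.5 CPM without ligature. The late and S100 genes had log2 fold changes of 0.60 to 0.88 and the early genes -0.026 to 0.21. In LSD1WT the late and S100 genes were at 0.33 to 0.83 and the early genes at -0.022 to 0.31, and every gene overlapped. No member passed the test in either genotype by edgeR, DESeq2 or limma voom, against 0% of all genes in edgeR in LSD1WT and 0% in LSD1cKO. Unadjusted, only DESeq2 had a member under 0.05, 1 in LSD1cKO.

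Transcription factors and cofactors of granule genes were followed as a list. Of 15 genes, all tested, 3 rose (Cebpe, Gfi1b and Klf4) and Kdm1a fell in LSD1cKO over the 3 cultures, and the list's median log2 fold change was -0.061. Cebpe, the C/EBP factor needed for late granule genes, had 0.580, 1.32 and 1.83 CPM (lowest, median and highest) in LSD1WT against 3.54, 4.68 and 7.93 CPM in LSD1cKO. Its log2 fold change was 1.96 (SE 0.32, adjusted p = 0.00896), with no overlap. Gfi1b, a repressor that recruits LSD1, had 0.0828, 3.79 and 4.07 CPM in LSD1WT against 38.4, 46.7 and 57.6 CPM in LSD1cKO, with a log2 fold change of 4.15 (SE 0.71, adjusted p = 0.0106). Both of its low values, 0.257 and 0.0828 CPM, were in the femur LSD1WT replicate 2 libraries. Klf4, a factor of monocyte differentiation, had a log2 fold change of 1.61 (SE 0.16, adjusted p = 0.000919). Gfi1 itself, the factor of the granulocyte branch, named here after its values were seen, was at 0.129 to 0.464 CPM in all libraries. Spi1, which encodes PU.1, was the most abundant factor on the list at 338 to 696 CPM, with a log2 fold change of 0.11 (adjusted p = 0.863). Runx1, Rcor1 and Hdac2 had log2 fold changes of -0.17, -0.080 and -0.0038, and none passed.

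Of 23 other granule cargo genes, 1 rose, none fell and the median log2 fold change was 0.052. The gene that rose was Mmp25, a membrane-bound matrix metalloproteinase of neutrophils, at 0.294 to 0.647 CPM in LSD1WT and at 2.19 to 3.73 CPM in LSD1cKO, with a log2 fold change of 2.75 (SE 0.20, adjusted p = 0.000109). The most abundant cargo genes are also expressed by macrophages or osteoclasts, as with Lyz2 (lysozyme) at 1232 to 35330 CPM, Mmp9 at 20.4 to 21240 CPM, Ctsd at 609 to 5061 CPM and Anxa1 at 232 to 1883 CPM, and none of these passed. Among genes for packing, activating and inhibiting granule proteases, 11 of 16 could be tested and 2 rose, with a list median of 0.34. Srgn, the proteoglycan core that holds granule proteins, was at 18.2 to 104 CPM in LSD1WT and at 67.0 to 198 CPM in LSD1cKO (log2 fold change 1.63, SE 0.27, adjusted p = 0.00956). Serpinb1a, an inhibitor of neutrophil serine proteases, was at 0.994 to 7.79 CPM in LSD1WT and at 5.13 to 34.8 CPM in LSD1cKO (log2 fold change 1.73, SE 0.28, adjusted p = 0.0084). Ctsc, which activates the early granule proteases, was at 56.8 to 950 CPM with a log2 fold change of -0.037, and Serpinb6a, Cst3 and Ap3b1 were at -0.024, 0.34 and -0.17. With mandible LSD1WT replicate 3 counted as femur, Serpinb1a had an adjusted p of 0.0537.

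Of 10 receptors and binding partners of the granule proteins, 9 were tested and none passed, with a median log2 fold change of -0.27. Emb and Bsg, surface proteins that bind S100A8 or S100A9, were at 214 to 638 CPM and 194 to 293 CPM, and Lrp1, a lactoferrin receptor, was at 287 to 3086 CPM. Their log2 fold changes were 0.50 for Emb, -0.065 for Bsg and -0.27 for Lrp1, and that of the scavenger receptor Cd36 was -1.83 (SE 1.09, adjusted p = 0.468). Among 12 other S100 genes, 7 were tested, 1 rose and the median log2 fold change was 0.63. S100a6 was at 103 to 197 CPM in LSD1WT and at 257 to 591 CPM in LSD1cKO, without overlap (log2 fold change 1.59, SE 0.24, adjusted p = 0.00608). S100a10, S100a11 and S100a1 were at 0.63, 0.64 and 0.29, and did not pass.

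Markers of the neutrophil lineage itself ran from 0 to 61.5 CPM over the list and the libraries. Ly6g, the defining surface protein of mouse neutrophils, also named after its values were seen, was at 0 to 0.311 CPM, and of 16 surface and maturation markers 12 could be tested. In LSD1cKO, 2 of them rose, Ifitm6 (log2 fold change 2.44, SE 0.31, adjusted p = 0.00284) and Padi4 (1.86, SE 0.35, adjusted p = 0.0162), with a list median of 0.77. Ifitm6 was at 1.10 to 11.1 CPM in LSD1WT and at 5.22 to 43.2 CPM in LSD1cKO, and Padi4, which citrullinates histones, at 0.477 to 1.69 and at 1.61 to 9.64 CPM. Csf3r, the G-CSF receptor, was at 1.61 to 61.5 CPM in LSD1WT, highest in ligated femur replicate 2, and at 2.47 to 25.2 CPM in LSD1cKO (log2 fold change 0.024). The summed level of this list was 11.8 to 94.4 CPM in LSD1WT and 21.2 to 83.9 CPM in LSD1cKO. In the ligated femur it was 17.3 CPM in LSD1WT replicate 1 and 82.6 to 94.4 CPM in the 3 other libraries. Those 3 had the highest Ngp, Ltf, Lcn2, S100a8 and S100a9. Within these sums, Csf3r was at 61.5 CPM in LSD1WT replicate 2 and Ifitm6 at 43.2 CPM in LSD1cKO replicate 2. Unligated femur LSD1cKO replicate 2 also summed to 83.9 CPM, with Ngp at 46.3, Ltf at 25.4 and S100a9 at 92.3 CPM. Unligated femur LSD1WT replicate 2 summed to 42.5 CPM, against 19.3 CPM in replicate 1. It was still the lowest library for every late and S100 gene. The part of neutrophil content in the values of the members was not tested. Of 12 promyelocyte and progenitor markers, 11 were tested and 1 rose, Dmkn, at 0.0414 to 1.21 CPM in LSD1WT and 3.67 to 8.16 CPM in LSD1cKO (log2 fold change 3.40, SE 0.58, adjusted p = 0.0106), with a list median of 0.49. Clec12a, Igfbp4, Gstm1 and Mgst1 were the most abundant of them, at log2 fold changes of 0.49, -1.46, -0.51 and -1.35, and did not pass. The promyelocyte gene Ms4a3, named here after its values were seen, was at 0.331 to 1.51 CPM.

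Lists of the other lineages were also followed. Of 12 osteoclast and 12 macrophage markers, all tested, none passed between the genotypes, with median log2 fold changes of -0.24 and -0.74. Acp5 and Ctsk were at 8.31 to 7677 CPM and 5.90 to 7875 CPM, Atp6v0d2 and Tcirg1 at 11.7 to 2185 CPM and 380 to 1499 CPM, and each was lowest in a femur LSD1WT replicate 2 library. Csf1r and Cd68 were at 777 to 3684 CPM and 661 to 1359 CPM, and Adgre1 and Apoe at 47.6 to 1717 CPM and 43.9 to 5658 CPM. Of 8 T and NK cell markers 2 were tested and 1 rose, Lck, at 0.110 to 0.359 CPM in LSD1WT and 0.464 to 1.01 CPM in LSD1cKO (log2 fold change 1.60, SE 0.35, adjusted p = 0.0323). Its adjusted p was 0.0544 to 0.0895 when any one of 6 libraries was left out (ligated femur LSD1WT replicate 1, ligated femur LSD1cKO replicate 2, mandible LSD1WT replicate 3, mandible LSD1cKO replicate 1, unligated femur LSD1WT replicate 1 or unligated femur LSD1cKO replicate 2). No gene passed among the B cell (3 of 8 tested), megakaryocyte (7 of 8), stromal (5 of 8) or eosinophil, basophil and mast cell lists (1 of 14), and no erythroid marker could be tested. Their summed levels over the libraries were 0.734 to 9.68 CPM for B cells, 0.290 to 5.27 CPM for T and NK cells, 0.0323 to 0.687 CPM for erythroid cells, 1.05 to 4.21 CPM for eosinophils, basophils and mast cells, 11.2 to 909 CPM for megakaryocytes and 0.745 to 42.7 CPM for stromal cells. Stromal markers were highest in mandible LSD1WT, at 42.5 and 42.7 CPM, and at 10.5 and 4.91 CPM in mandible LSD1cKO. The summed early granule genes were at 27.9 and 29.1 CPM in mandible LSD1WT and at 30.4 and 30.2 CPM in mandible LSD1cKO. Of the femur libraries, ligated LSD1WT replicate 2 was highest for both, at 27.8 CPM of stromal markers and 24.4 CPM of early genes. The part of stromal content in the early gene values was not tested. Of the 12 genes said above to have risen or fallen in LSD1cKO over the 3 cultures, 10 did not pass in the 8 femur libraries alone, all but Kdm1a and Mmp25, with folds in the same direction.

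The genes whose log2 CPM was most like each group's mean over the 12 libraries were chosen by Pearson's r, as a description only. For the early granule genes they were Plod2 (r = 0.92), Igfbp5 (0.92), Gm7774 (0.89), Amz1 (0.89) and Col8a1 (0.88). For the late granule genes they were Ccr9 (0.93), Crispld2 (0.91), Klrk1 (0.90), Hp (0.90) and Pglyrp1 (0.90). For the S100 genes they were Ccr9 (0.97), 2410006H16Rik (0.95), Rpl10 (0.92), Clec4b2 (0.92) and Cr1l (0.92). Most of these were at low levels, such as Ccr9 at 0.456 to 2.49 CPM, and ranked by Spearman's rho Igfbp5 and Crispld2 came first for the early and the late genes. In GENCODE vM21, Mpo overlaps the antisense gene Gm11505 and Prtn3 the gene Plppr3 on the opposite strand. Whether counting used strand is not given in the sources used here, so reads in these overlaps could not be told apart.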

How the data were processed

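The authors deposited raw read counts per gene for 12 libraries of polyA RNA. Per the submitters' processing notes, the tools were FastQC, HISAT2 2.1.0, featureCounts and edgeR with build GRCm39, and their settings and annotation are not given in the sources used here. Counts were analysed in R 4.3.3 with edgeR 4.0.16. Genes were filtered with filterByExpr (minimum count 10, 15425 of 57010 kept) and scaled by TMM. All 12 libraries were fitted together by quasi-likelihood, with 1 coefficient per condition or, for the comparison over the 3 cultures, culture and genotype as terms. This fit held no term for the mouse, so its tests and intervals take libraries of a shared mouse as independent. P-values were adjusted by Benjamini-Hochberg over all genes and held to 0.05. Log2 CPM used a prior count of 2. DESeq2 1.42.0, limma 3.58.1 (voom, mouse as random block), other scalings and filters, and left-out libraries were alternatives. The models were also run on simulated independent libraries with a genotype effect in some genes. These held no culture effect and no shared mice, so that run does not cover such features.

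The members and lists were chosen with earlier results of these data known. Named genes are the members, up to 4 genes of each other list with the highest mean CPM and every gene of those lists past the threshold over the 3 cultures, and others are said to be chosen later. A gene that this rule names is not reported here. Mandible and femur LSD1cKO libraries of one number share a mouse by their labels. The replicate differences of these mice correlated at 0.026 between the sites. Those of ligated and unligated femur LSD1WT, from different mice, correlated at 0.78, and those of the remaining pairs of conditions at -0.20 to 0.28.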

Additional observations from a re-analysis of the deposited data

Results flagged for a closer look

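Mpo was the only member whose genotype difference had opposite signs without overlap of libraries in different cultures. Its difference of mean log2 CPM (LSD1cKO minus LSD1WT) was 0.15 for mandible and -0.92 for ligated femur cultures, a gap of 1.07 between the cultures. The interaction test of that gap in edgeR gave 1.16 (SE 0.67) with an adjusted p of 1.0. Against the unligated femur, where the difference was -0.95, the gap was 1.10, and this difference was not tested. Each rests on 2 libraries per genotype and culture, and the 2 mandible LSD1WT libraries were nearly identical. Dixon's criterion was met by no member in the 20 sets of 6 libraries of 1 genotype, where chance meets it in about 1 of 20.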

How the results depend on the processing

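Of 25 alternatives, none made a member pass over the 3 cultures, in the mandible or in the unligated femur. In the ligated femur, leaving out both femur LSD1WT replicate 2 libraries made 4 members pass and turned Elane, Ctsg and Prtn3 to log2 fold changes of 0.72, 0.31 and 0.83, and Prtn3 over the 3 cultures to 0.21, while limma voom put Elane at 0.017. Leaving out 1 library at a time gave ranges of -0.74 to 0.63 for Elane, -0.99 to 0.22 for Ctsg and -0.96 to 0.75 for Prtn3 there, -0.27 to 0.13 for Prtn3 over the 3 cultures, and -0.57 to 0.075 for Camp in the mandible. The upper positive ends for Elane, Ctsg and Prtn3 came without ligated femur LSD1WT replicate 2. The cause was not tested.

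Between mandible and femur in LSD1cKO, 1 member passed with DESeq2, 1 with no filter, 0 to 1 with 1 library left out, 7 without both replicate 2 libraries and 10 in the compared conditions alone. In LSD1WT, 1 (Prtn3) passed without those libraries. Over both genotypes, 1 passed with upper-quartile scaling, 3 with DESeq2, 1 with no filter, 0 to 6 with 1 library left out (6 without ligated femur LSD1WT replicate 1), 5 without both replicate 2 libraries and 1 in the compared conditions alone. Among all genes, 1046 of 15425 passed over both genotypes with upper-quartile scaling and 2095 of 27149 with no filter. In the compared conditions alone 2074 of 15060 did. In LSD1cKO, 329 of 27149 passed with no filter. The fit without both replicate 2 libraries has 1 LSD1WT library in each femur condition, and no conclusion is drawn from its member counts. With a replicate block, 0 members passed in any comparison, and the block changed no call of a member. Of the other genes, Lck alone lost its call under the replicate block (adjusted p = 0.0865) and in limma voom (adjusted p = 0.123). In the femur libraries alone, an alternative chosen after seeing the data, 10 of the 12 other genes named as called lost it, all but Kdm1a and Mmp25, at adjusted p of 0.0792 to 0.279, with log2 fold changes still at 1.43 (Serpinb1a) to 4.34 (Gfi1b). That fit has 8 libraries. Over all genes, the number past the threshold for genotype over the 3 cultures was 544, against 1248 with DESeq2, 3867 without both replicate 2 libraries and 22 in the femur alone. For genotype in the ligated femur it was 1, against 217 with DESeq2 and 1497 without both replicate 2 libraries, and in the mandible 0 against 146, 936 and, with the 4 mandible libraries alone, 5434. For mandible against femur it was 0 in LSD1cKO, against 810 with DESeq2, and 959 over both genotypes, against 0 to 4883 with 1 library left out. With 2 libraries per condition, a log2 fold change of S100a9 between 2 conditions has an SE of about 0.60. One of -1.33, for mandible against femur in LSD1cKO, did not pass.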
